A study of Caenorhabditis elegans with 9 samples.

Results

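The group described here is 10 genes of chromosome IV of *Caenorhabditis elegans*: *dod-17*, *dod-21*, *dod-22*, *dod-24*, F55G11.8, K08D8.4, K08D8.5, C32H11.1, C32H11.4 and C32H11.9. They were chosen by position and by their FPKM values in N2, as neighbors that N2 animals hardly expressed, and they are 10 of the 40313 entries in the table. FPKM, the number of fragments scaled to gene length and library size, is the unit of all levels below. Their low values in N2 are therefore part of the choice, and every comparison of these genes with N2 is given as a description without a test. Each of the 10 had an entry of its own, and all 10 passed the filter on low values (at least 0.5 FPKM in at least 2 libraries), which kept 13751 entries. They passed it through the mutant libraries wherever N2 was at or near 0, and C32H11.9 through the double mutants alone.

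RNA was sequenced from whole gravid adult hermaphrodites of 3 genotypes, with 3 populations of each: double mutants with *daf-1*(*m40*) and *daf-3*(*mgDf90*), single mutants with *daf-1*(*m40*) and the wild type N2. All populations were fed NA22 *Escherichia coli*, raised at 16 °C to L4 and then held at 25 °C for 25 h by the labels, while the study's methods text gives a slightly different time. Both mutant genotypes carry the *daf-1* allele, so they differ by the *daf-3* allele, and a *daf-3* single mutant was not analysed here. The replicate numbers 1 to 3 are those of the labels, and the study calls the replicates batches. Replicate 3 of the double mutants was set aside by the study after a principal component analysis. By qPCR of this batch, the study also saw no suppression of *abu-8*, *pqn-74* and *sodh-1* in the double mutants. It raises the possibility that the sample is an outlier. This replicate is left out of the tests below, which use 8 libraries, and the values with all 9 are given beside them.

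DAF-1 is a type I receptor for the TGFβ ligand DAF-7, and DAF-3 is the co-SMAD that the pathway opposes. Loss of *daf-3* therefore suppresses many traits of *daf-1* mutants, such as constitutive dauer formation. The *dod* genes (downstream of DAF-16) were named for a change in expression when insulin signaling is altered. *dod-17*, *dod-21*, *dod-22* and *dod-24* belong to those that are lower when the FOXO factor DAF-16 is active. The label of the group also names CUB-like genes, without saying which members carry a CUB-like domain. CUB-like genes are known in *C. elegans* for expression in the intestine and for induction by bacterial pathogens. The current annotation names C32H11.1 *irg-6*, an infection response gene, and C32H11.9 *cld-1*.

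*daf-3* was nearly absent from the double mutants. It had 0, 0.0147 and 0 FPKM in the double mutants, 19.9, 22.3 and 20.6 in *daf-1* mutants, against 19.2, 18.8 and 22.5 in N2. *daf-1* itself, also on chromosome IV, lies 12.77 Mb from the first of the 10 genes. The FPKM values of a library summed to between 748170 and 959313, and between 15894 and 17015 named entries were above 0. Read counts were not used, so the depth behind a value and its counting error are unknown. All 10 intestine markers were detected in every library (*elt-2*, *ges-1* and *vha-6* among them). Their summed level ran from 2090 to 2935 FPKM in the double mutants, from 3063 to 4009 in *daf-1* mutants and from 1318 to 1867 in N2. Most of this sum was *asp-1*, with means of 1948, 2729 and 1041 FPKM in the double mutants, *daf-1* mutants and N2. The markers did not all follow it. Between *daf-1* mutants and N2 the means were close for *elt-2* (11.88 and 11.05 FPKM) and *elt-7* (8.31 and 8.28 FPKM). *mtl-2* was lower in *daf-1* mutants (22.9 against 48.8 FPKM), while the rest had higher means there. In whole animals, fewer cells of a type and less RNA per cell cannot be told apart.

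The 10 genes, all protein coding, span 70875 bp on the build WBcel235 (IV: 12907469 to 12978343), with 5 on each strand. None overlaps another annotated gene. K08D8.4, K08D8.5 and C32H11.1 stand in a row on the minus strand, with gaps of 648 and 592 bp. C32H11.4 follows 6294 bp further on. C32H11.9 and *dod-21* are divergent neighbors whose starts are 466 bp apart, and *dod-24* lies 2117 bp beyond *dod-21*. After a gap of 21453 bp come F55G11.8 and *dod-22*, 728 bp apart, and then *dod-17*.

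As a group the 10 genes were highest in the double mutants and lowest in N2. Their FPKM values summed to 652, 772 and 412 in the double mutants, to 181, 139.7 and 138 in *daf-1* mutants and to 4.17, 4.56 and 5.10 in N2. No library of one genotype reached the sums of the next. The sums were 0.0481% to 0.0804% of a library's total in the double mutants, 0.0166% to 0.0225% in *daf-1* mutants and 0.000502% to 0.000681% in N2. *dod-24* alone made up 65.7%, 67.9% and 73.9% of the sum in the double mutants and 59.2%, 57.3% and 54.2% in *daf-1* mutants, against 5.42% to 9.39% in N2. Without *dod-24* the sums were still 224, 248 and 107 FPKM in the double mutants and 74.0, 59.6 and 63.2 FPKM in *daf-1* mutants.

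**Figure D1:**
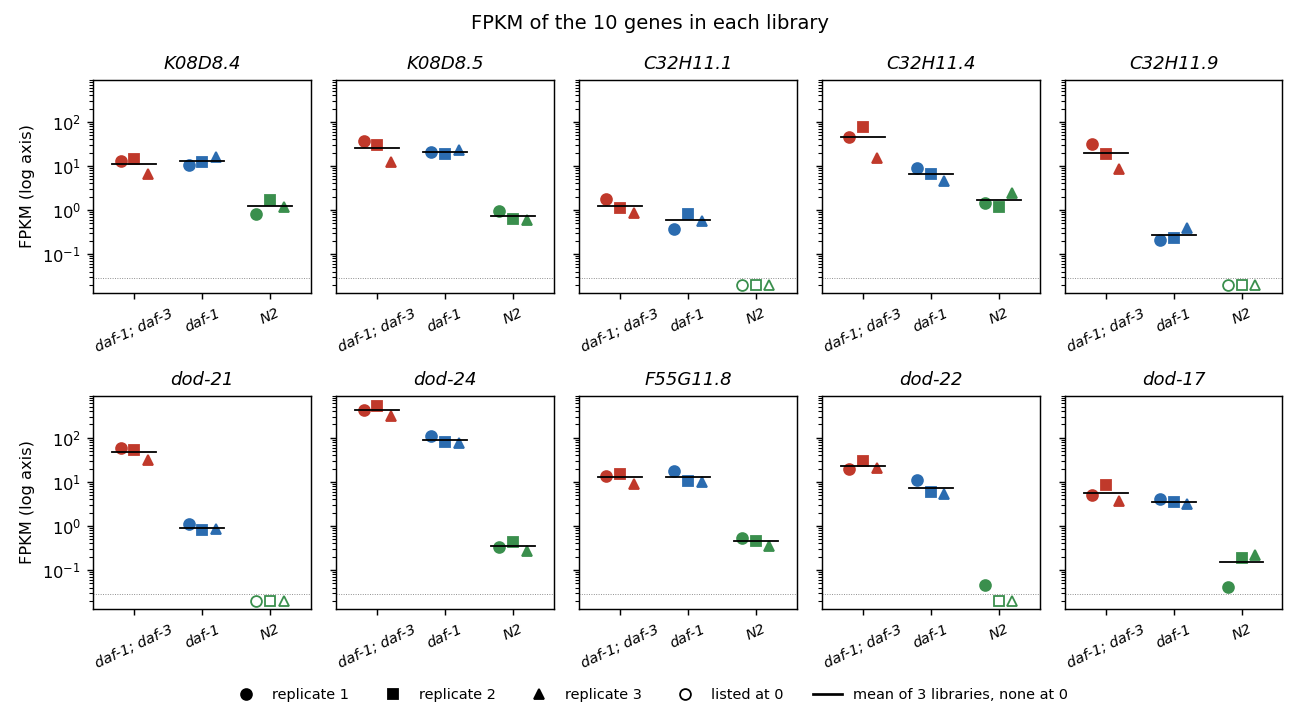
Level of each of the 10 genes in every library (FPKM, log axis), with 1 panel per gene in chromosome order and the genotypes from left to right as *daf-1*; *daf-3*, *daf-1* and N2. Open symbols below the dotted line are libraries where the gene was listed at 0, and horizontal lines are means of 3 libraries where none was at 0. *dod-24* had the highest mean in both mutant genotypes, C32H11.9 and *dod-21* are far apart between the mutants, and K08D8.4 and F55G11.8 are not.

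Of the 10 genes, 6 were higher in the double mutants than in *daf-1* mutants and none was lower, with a call set at an adjusted p under 0.05 and at least a 2-fold difference. Over all entries tested, 12.7% were called in this comparison, and 1.43% were called higher against 11.2% lower. This comparison uses no N2 value. The 10 genes were, however, proposed with earlier results of these libraries known, so the count is a description of them. It includes C32H11.9, which passed the filter only through the double mutants. The median log2 difference was 1.38 over the 10 genes and −0.000256 over all entries tested. With all 9 libraries 4 of the 10 were called higher (*dod-21*, C32H11.9, *dod-24* and *dod-22*), where 0.532% of 13907 entries were. Every double mutant library, replicate 3 included, lay above every *daf-1* library for 6 of the 10 genes, a pattern that 15.2% of the entries had.

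The divergent pair of *dod-21* and C32H11.9 had the widest differences between the mutants. *dod-21* (IV: 12936738 to 12937988, plus strand, 3 exons) had 58.1, 54.0 and 31.0 FPKM in the double mutants, 1.09, 0.790 and 0.843 in *daf-1* mutants and was listed at 0 in all N2 libraries. Its lowest double mutant library was far above its highest *daf-1* library. The log2 difference between the mutants was 5.61 (SE 0.227, adjusted p = 9.31e-06), the 15th highest of the 13751 entries. Replicate 3 alone was 34.1 times the *daf-1* mean.

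C32H11.9 (IV: 12935011 to 12936271, minus strand, 3 exons) had 31.7, 18.99 and 8.31 FPKM in the double mutants, against 0.210, 0.234 and 0.382 FPKM in *daf-1* mutants, where it had the lowest mean of the 10. All N2 libraries were listed at 0. The genotypes did not overlap, although the double mutant libraries differed among themselves more than for *dod-21*. Its log2 difference was 5.57 (SE 0.311). Since this gene was under 0.5 FPKM in every *daf-1* and N2 library, the filter kept it only where it is high, and its call is a description. With no filter on low values its adjusted p was 0.00027. Because the *daf-1* values are near the added constant of 0.25 FPKM, the fitted difference understates the ratio of the mean levels, which was 92.0 with replicates 1 and 2 and 71.4 with all 3.

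*dod-24* (IV: 12940106 to 12941354, minus strand, 3 exons), known as a gene of innate immunity as well as a *dod* gene, reached the highest levels of the group. It had 429, 524 and 305 FPKM in the double mutants, 107, 80.1 and 74.9 FPKM in *daf-1* mutants, and in N2 0.336, 0.428 and 0.276 FPKM. The libraries fell in 3 separate ranges by genotype. Its log2 difference between the mutants was 2.45 (SE 0.180, adjusted p = 0.000308), and 2.24 with all 9 libraries (adjusted p = 0.0018). Its log2 difference from N2 was 9.64 in the double mutants and 7.19 in *daf-1* mutants. The choice of genes that N2 hardly expressed favors such differences.

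*dod-21* and *dod-24*, 2117 bp apart, did not keep one proportion across genotypes. The level of *dod-21* was 0.135, 0.103 and 0.102 times that of *dod-24* in the double mutants and 0.0102, 0.00986 and 0.0113 times in *daf-1* mutants. The 2 sets of ratios are each narrow and lie an order of magnitude apart. Reads that match several related genes can be split between them by the authors' software. How many reads these genes share was not tested.

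C32H11.4 (IV: 12921264 to 12923296, plus strand, 8 exons) had 44.8, 76.5 and 15.2 FPKM in the double mutants, 8.84, 6.45 and 4.51 in *daf-1* mutants, against 1.44, 1.18 and 2.46 in N2, the highest N2 mean of the 10. Every double mutant library exceeded every *daf-1* library, yet the double mutants spread widely, with a mean of 45.5 (SD 30.6, n = 3). The log2 difference was 3.15 (SE 0.361, adjusted p = 0.00236) with 8 libraries and 2.51 (adjusted p = 0.0637) with all 9, so this call rests on leaving out replicate 3. C32H11.4 had the smallest ratio of *daf-1* mutants to N2 among the members detected in every N2 library, 3.90.

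*dod-22* (IV: 12965374 to 12967392, plus strand, 8 exons), another gene known to be induced by bacterial infection, had 19.8, 29.0 and 20.8 FPKM in the double mutants against 11.02, 5.75 and 5.42 in *daf-1* mutants. In N2 it was at 0.0467 FPKM in replicate 1 and listed at 0 in replicates 2 and 3. It was the member whose double mutant replicate 3 was not the lowest of its genotype. The log2 difference of 1.74 (SE 0.329, adjusted p = 0.0084) was 1.67 with all 9 libraries (adjusted p = 0.0306).

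C32H11.1 (IV: 12912722 to 12914969, minus strand, 9 exons) stayed low throughout, at 1.78, 1.09 and 0.869 FPKM in the double mutants, 0.374, 0.807 and 0.557 in *daf-1* mutants and 0 in every N2 library. Its call was at the threshold, with a log2 difference of 1.03 (SE 0.354, adjusted p = 0.0498). With the batch as a replicate block the adjusted p was 0.094, and with all 9 libraries it was 0.207. The call was also lost when any library other than replicate 2 of the double mutants was left out.

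The other 4 members were not called between the mutants. K08D8.5 (IV: 12910647 to 12912129, minus strand, 5 exons) had 35.8, 30.5 and 12.1 FPKM in the double mutants, 20.5, 19.1 and 22.6 in *daf-1* mutants, against 0.937, 0.621 and 0.587 in N2. Replicates 1 and 2 of the double mutants were above all *daf-1* libraries and replicate 3 was below them. The log2 difference of 0.67 (95% interval 0.25 to 1.10, adjusted p = 0.0257) was under 2-fold.

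K08D8.4 (IV: 12907469 to 12909998, minus strand, 9 exons) had 13.01, 14.5 and 6.52 FPKM in the double mutants, 10.7, 12.4 and 15.7 in *daf-1* mutants, against 0.834, 1.68 and 1.20 in N2. The mutants overlapped, and the log2 difference of 0.10 (95% interval −0.49 to 0.69, adjusted p = 0.774) turned to −0.25 with all 9 libraries. F55G11.8 (IV: 12962808 to 12964645, plus strand, 8 exons) likewise overlapped, at 13.7, 15.2 and 9.16 FPKM in the double mutants and 17.2, 10.6 and 10.04 in *daf-1* mutants. It had 0.541, 0.463 and 0.356 FPKM in N2. Its difference between the mutants was 0.23 (95% interval −0.35 to 0.81, adjusted p = 0.492), and its means over 3 libraries were 12.67 ± 3.14 FPKM in the double mutants and 12.61 ± 3.97 FPKM in *daf-1* mutants (SD, n = 3 each).

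*dod-17* (IV: 12976303 to 12978343, plus strand, 8 exons) is the last gene of the group. It had 4.93, 8.36 and 3.59 FPKM in the double mutants, 4.02, 3.52 and 3.20 in *daf-1* mutants, against 0.0413, 0.192 and 0.217 in N2. Replicates 1 and 2 of the double mutants lay above the *daf-1* range and replicate 3 within it. The log2 difference of 0.81 (95% interval 0.09 to 1.52, adjusted p = 0.0723) did not pass the test.

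**Figure D2:**
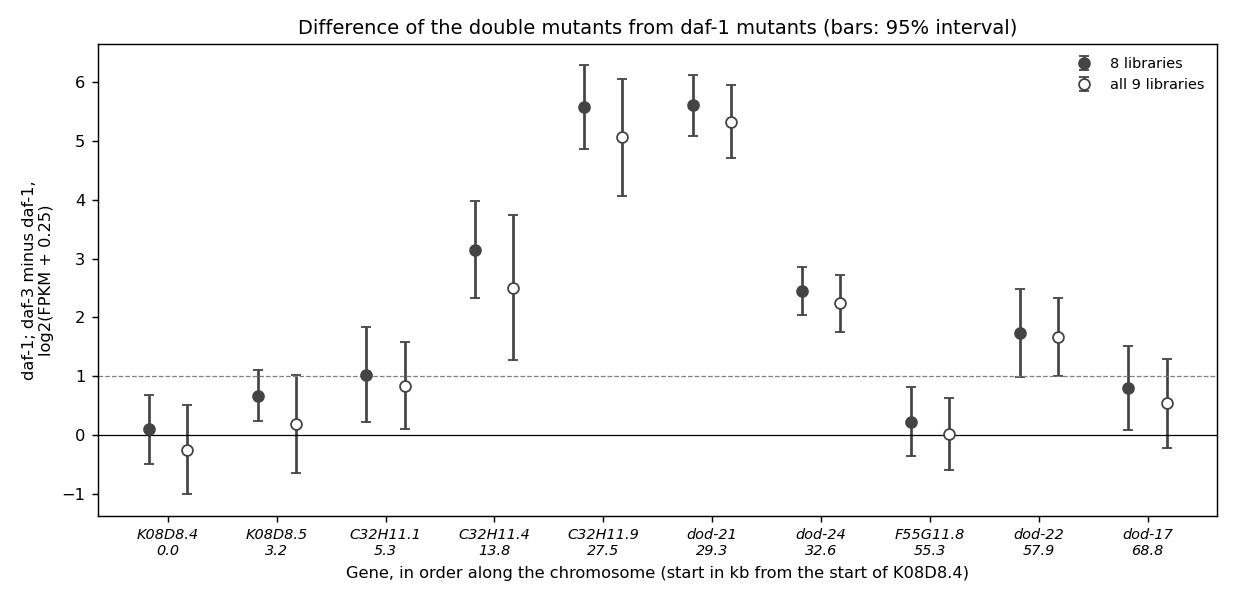
Log2 difference of *daf-1*; *daf-3* double mutants from *daf-1* mutants for each gene in chromosome order, on log2(FPKM + 0.25), with 95% intervals. Filled circles are the fit to 8 libraries and open circles the fit to all 9. The dashed line marks 2-fold. C32H11.9 and *dod-21* stand at 5.57 and 5.61 with 8 libraries, and K08D8.4 and F55G11.8 at 0.10 and 0.23.

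Along the chromosome the differences between the mutants were not evenly spread. The members with the 4 highest, C32H11.4, C32H11.9, *dod-21* and *dod-24*, lie within 20091 bp with no other member between them. The members on either side had log2 differences of 0.10 to 1.74. The stretch is not a continuous block of raised genes, since other annotated genes lie inside it. Of these, C32H11.5 was called lower with 8 libraries (−2.21, adjusted p = 0.0153). The pseudogene C32H11.7 was higher by 1.07 (adjusted p = 0.0214). Neither was called with all 9 libraries. The rest were below the filter on low values and were not tested. The grouping of the 4 members was seen in the values and was not tested. Strand did not follow it, since C32H11.4 and *dod-21* are on the plus strand and C32H11.9 and *dod-24* on the minus strand.

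Compared within batches, the double mutants remained higher for most members. The log2 difference of the double mutant from the *daf-1* library of the same replicate number was above 0 for 9, 10 and 7 of the 10 genes in replicates 1, 2 and 3, where 49%, 52.2% and 58.4% of entries were. It was at least 1, or 2-fold, for 5, 6 and 5 of the 10, against 3.1%, 2.99% and 3.24% of entries. *dod-21* differed by 5.44, 5.70 and 4.84, C32H11.9 by 6.12, 5.31 and 3.76, and C32H11.4 by 2.31, 3.52 and 1.70. *dod-24* differed by 1.996, 2.71 and 2.02. *dod-22* was under 2-fold in replicate 1, with differences of 0.83, 2.29 and 1.89. The 3 members below 0 in replicate 3 were K08D8.4 (−1.24), K08D8.5 (−0.89) and F55G11.8 (−0.13), and F55G11.8 was also below 0 in replicate 1 (−0.33).

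**Figure D3:**
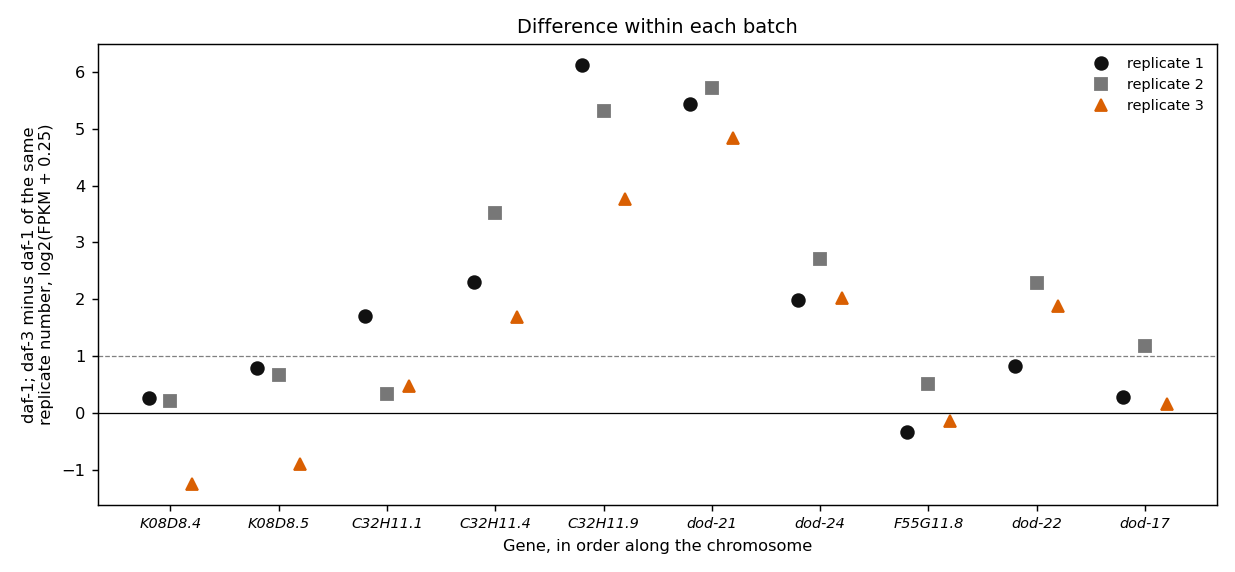
Difference of the *daf-1*; *daf-3* library from the *daf-1* library of the same replicate number for each gene, on log2(FPKM + 0.25). Circles are replicate 1, squares replicate 2 and triangles replicate 3, and the dashed line marks 2-fold. In C32H11.4, C32H11.9, *dod-21* and *dod-24* all 3 symbols lie above the dashed line, and in replicate 3 K08D8.4 and K08D8.5 lie below 0.

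Replicate 3 of the double mutants was the lowest of its genotype for 9 of the 10 genes, which held for 42.4% of the entries. In *daf-1* mutants, replicate 1 was the highest for 6 of the 10, against 40% of the entries. Markers of larval molting, a list of 7 genes with *mlt-10* and *noah-1*, had their highest double mutant sum in replicate 3. This sum was 376 FPKM and reached down to 96.0 in the other double mutants. It was 294 to 325 FPKM in *daf-1* mutants and 252 to 412 in N2, and these ranges overlapped. Not every marker followed the sum. *bli-1* was lowest among the double mutants in replicate 3 (0.0898 FPKM against 0.253 and 0.478). *nas-37* had a log2 difference of 0.00109 between the mutants. None of the markers was at 0 in any library. Of the 7, 5 were called lower in the double mutants than in *daf-1* mutants with 8 libraries and 0 of the 7 with all 9. Over all entries, 11.2% were called lower with 8 libraries and only 89 of 13907 with all 9. The part of these markers in the result was not tested. Deviations from the genotype means correlated positively in most pairs of the 10 genes. Over the 6 mutant libraries the median Pearson r of the 45 pairs of genes was 0.654 (−0.593 to 0.964), with 40 pairs above 0. This is a description, since all genes of a library share its depth and batch. Pairs drawn from all entries were not measured, so it is not known whether the 10 genes differ from other genes in this.

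The coefficients of variation within a genotype ran from 21.9% to 67.4% over the 10 genes in the double mutants and from 8.56% to 42.5% in *daf-1* mutants. In the double mutants the means ran in the order *dod-24*, *dod-21*, C32H11.4, K08D8.5, *dod-22*, C32H11.9, F55G11.8, K08D8.4, *dod-17* and C32H11.1. Only *dod-24* and *dod-21*, and *dod-17* and C32H11.1, had library ranges that did not overlap with their neighbor in this order. In *daf-1* mutants *dod-24* also came first, followed by K08D8.5, K08D8.4, F55G11.8, *dod-22*, C32H11.4, *dod-17*, *dod-21*, C32H11.1 and C32H11.9. *dod-24* and K08D8.5, K08D8.5 and K08D8.4, C32H11.4 and *dod-17*, and *dod-17* and *dod-21* were separate there. *dod-21* thus stood second in the double mutants and eighth in *daf-1* mutants. In N2 the highest mean was that of C32H11.4, but in replicate 2 K08D8.4 was higher (1.68 against 1.18 FPKM). The N2 mean of *dod-24* came after those of K08D8.4, K08D8.5 and F55G11.8, and its range overlapped that of F55G11.8.

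Against N2, both mutant genotypes had higher levels of all 10 genes in every library, which the choice of genes that N2 hardly expresses favors. How many of all entries had this pattern was not counted. In the double mutants the mean of 3 libraries was 1209 times that of N2 for *dod-24*, 37.5 times for *dod-17*, 36.5 times for K08D8.5, 27.9 times for F55G11.8, 26.8 times for C32H11.4 and 9.17 times for K08D8.4. In *daf-1* mutants it was 252 times that of N2 for *dod-24*, 29.0 times for K08D8.5, 27.8 times for F55G11.8, 23.9 times for *dod-17* and 10.5 times for K08D8.4. No ratio is given for the genes listed at 0 in N2 libraries. The median log2 difference over the 10 genes was 5.05 for the double mutants and 3.23 for *daf-1* mutants, beside 0.02 and 0.02 over all entries.

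**Figure D4:**
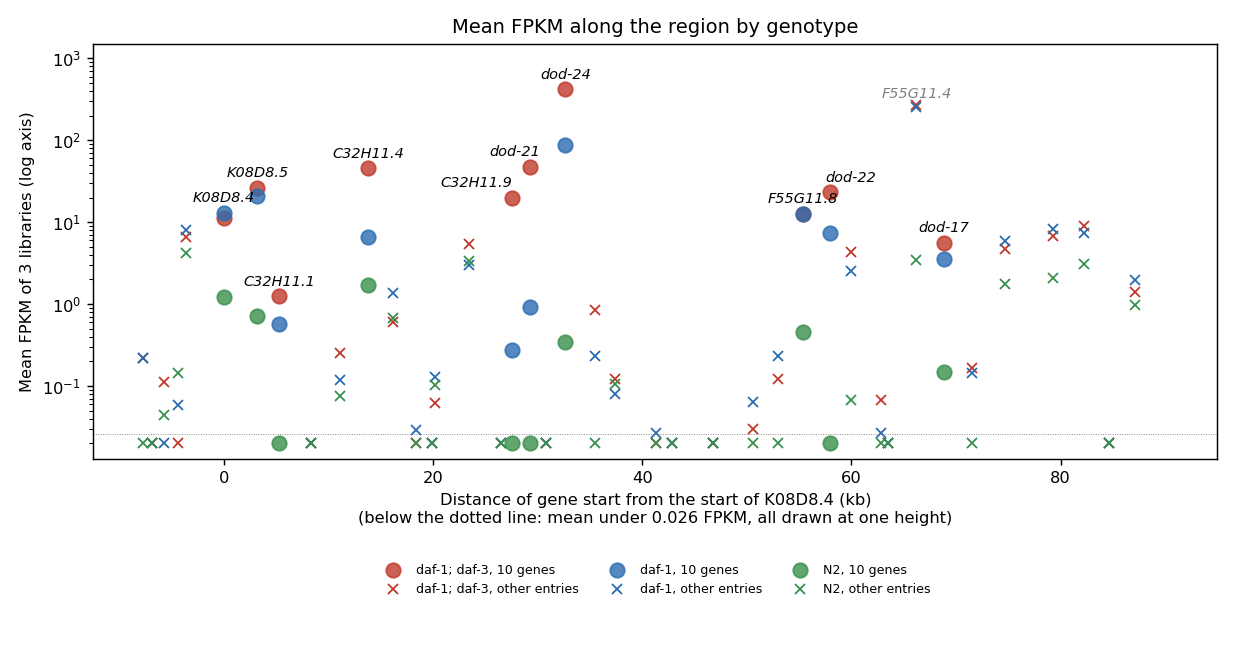
Mean FPKM of 3 libraries (log axis) for the 10 genes (circles, named) and for the 31 other genes annotated in the same 100 kb of chromosome IV (crosses), by distance from the start of K08D8.4 in kb. Red is *daf-1*; *daf-3*, blue *daf-1* and green N2. Most crosses lie under 0.5 FPKM in every genotype, whereas F55G11.4, which is not one of the 10, has means of 268 and 255 FPKM in the double and *daf-1* mutants.

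Other genes lie between and beside the 10, most of them hardly expressed in any library and some with levels like those of the 10. Of the 31 other genes annotated in the 100 kb, 20 were under 0.5 FPKM in every library, among them *srz-15* and C32H11.8, named as chemoreceptor-type genes, and C32H11.11. These last 3 lie between members and were listed at 0 in every library. Of the 31, 10 were tested, of which 3 were called higher and 2 lower in the double mutants than in *daf-1* mutants (1.43% and 11.2% of all entries). With all 9 libraries none of these 5 was called. Against N2, 6 of the 10 tested neighbors were called higher and 1 lower in the double mutants (3.56% and 5.34% of all entries), and 5 higher and none lower in *daf-1* mutants (6.27% and 0.953% of all entries). F55G11.2 (IV: 12967445 to 12969289), directly beside *dod-22*, had 4.95, 5.82 and 2.39 FPKM in the double mutants, 3.18, 2.14 and 2.27 in *daf-1* mutants, against 0, 0 and 0.205 in N2. Its log2 difference was 1.03 (adjusted p = 0.0424). The call was lost with the replicate block, where the difference was 1.15 (adjusted p = 0.0517). The other 2 called higher were the pseudogene C32H11.7, by 1.07 (adjusted p = 0.0214, but under 2-fold with the replicate block, at 0.98), and the joined entry of *dct-19* and a piRNA, by 1.64 (adjusted p = 0.0107). Those called lower were C32H11.5 (−2.21, adjusted p = 0.0153) and K10D11.7 (−2.79, adjusted p = 0.00647), both of which were highest among the double mutants in replicate 3.

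F55G11.4 (IV: 12973624 to 12975603), counted in one entry with a piRNA, lies between *dod-22* and *dod-17*. It had 289, 280 and 236 FPKM in the double mutants, 244, 218 and 301 in *daf-1* mutants, against 2.84, 3.17 and 4.35 in N2. The mutants overlapped (log2 difference 0.17, adjusted p = 0.472). The highest N2 mean of the 10 genes was 1.69 FPKM, in C32H11.4, and the nearest above it in the region was 1.75 FPKM, in K10D11.3. F55G11.4 had an N2 mean of 3.45 FPKM. F55G11.2, at 0.0684, is an example of a gene that N2 hardly expressed and that is not among the 10.

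The genes whose pattern over the 9 libraries was most like that of *dod-24*, by Pearson r of log2(FPKM + 0.25) among 7309 entries, were F08G5.6 on chromosome IV (r = 0.995), C14C6.5 on V (0.994), *dnj-26* on IV (0.993), H29C22.1 on X (0.992) and *fbxa-108* on V (0.992). F08G5.6, now *irg-4*, had 30.4, 29.1 and 17.6 FPKM in the double mutants, 6.70, 11.7 and 7.74 in *daf-1* mutants, against 0.0415, 0 and 0 in N2. The genes most like K08D8.5 were T05E12.6 on V (0.993), Y34B4A.6 on X (0.992), T20D3.2 and F49F1.7 on IV (both 0.991) and *clec-4*, a C-type lectin gene, on II (0.991). These correlations follow the steps between 3 genotypes and carry no test.

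Other *dod* genes and other CUB-like genes were counted in the same way. Between the mutants, 1.43% of all entries were called higher and 11.2% lower. The *dod* list was not split by the direction in which its genes respond to DAF-16. Of 6 other *dod* genes tested, none was called higher and 2 lower in the double mutants than in *daf-1* mutants, *dod-6* by −1.43 (adjusted p = 0.00441) and *dod-20* by −1.47 (adjusted p = 0.0101), and their median was −0.15. Of 7 other CUB-like genes, *irg-4* rose by 1.78 (adjusted p = 0.00407) and F35E12.10 by 1.05 (adjusted p = 0.00185), F20G2.5 fell by 1.25 (adjusted p = 0.00859), and the median was 0.54. With all 9 libraries the calls of *dod-6* (adjusted p = 0.156) and F35E12.10 (adjusted p = 0.176) were lost and the other 3 kept. Against N2, *daf-1* mutants had 3 of the 6 other *dod* genes and 5 of the 7 CUB-like genes called higher and none lower, where 6.27% of all entries were called higher.

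A list of 10 genes of the intestinal response to infection, 3 of them also counted above as CUB-like genes (*irg-4*, *irg-5* and C17H12.8), had 2 called higher and 2 lower in the double mutants than in *daf-1* mutants, with a median of 0.41. *sysm-1* (T24B8.5), a target of the PMK-1 pathway, rose by 1.38 (adjusted p = 0.0137) and the lectin gene *clec-67* fell by 1.36 (adjusted p = 0.0078). The other gene called lower, *irg-1*, was not called with the replicate block (adjusted p = 0.0516). With all 9 libraries *irg-4* and *clec-67* were the ones called. Of these 10, 8 were called higher in *daf-1* mutants than in N2, beside 6.27% of all entries. Among 12 genes known to be raised by DAF-16, none was called higher and 3 lower in the double mutants than in *daf-1* mutants, the direction of most calls over all entries (11.2% lower, 1.43% higher), including the superoxide dismutase gene *sod-3* (−1.91, adjusted p = 0.00934) and the metallothionein gene *mtl-1* (−1.93, adjusted p = 0.00725). *mtl-1* differed widely among the double mutants, with a mean of 133 FPKM (SD 194, n = 3) against 76.2 (SD 17.6, n = 3) in *daf-1* mutants. *sod-3* alone of these 12 was called with all 9 libraries. None of the 10 intestine markers was called between the mutants, and against N2, *daf-1* mutants had 2 of them called higher and 1 lower, a direction in which 0.953% of entries were called. None of the 7 oocyte and eggshell, 6 yolk or 2 sperm markers tested was called between the mutants, whereas 2 of 4 hypodermis markers and 1 of 2 pharynx markers were lower in the double mutants with 8 libraries and none with all 9. Below 2-fold, all 7 oocyte and eggshell markers were higher in the double mutants with 8 libraries (0.34 to 0.61), most with an adjusted p under 0.05. With all 9 libraries the lowest adjusted p among these 7 was 0.137. The intestine markers *elt-2* (−0.73, adjusted p = 0.00525) and *ges-1* (−0.51, adjusted p = 0.0375) were lower with 8 libraries. Neither had an adjusted p under 0.05 with all 9. No intestine marker was higher at that threshold.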

How the data were processed

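Total RNA of 9 whole-worm populations was selected for poly A and sequenced on a HiSeq2500. The authors used Trim Galore 0.4.0 for trimming, TopHat2 2.0.12 for alignment to WBcel235 (Ensembl), and estimated levels with Cufflinks and Cuffdiff, per the labels and the study's methods. They deposited 1 table of FPKM values, normalized by gene length and library size, with 40313 entries. Of these, 4882 join several genes, and 186 that name no gene were left out. Positions came from an Ensembl annotation of WBcel235. Whether the libraries kept strand is not given in the sources used here, so reads of antisense genes cannot be told apart.

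Log2(FPKM + 0.25) was fitted with limma 3.58.1 in R 4.3.3 (empirical Bayes with trend, 3 genotypes in 1 fit, 8 libraries). Entries with at least 0.5 FPKM in at least 2 libraries were tested, p-values were adjusted by the Benjamini-Hochberg method over all of them, and a call needed an adjusted p under 0.05 and a 2-fold difference. Fold changes on this scale understate the change of low genes. The limma script was tested on simulated data.

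The 10 genes, the lists and the tests were chosen with earlier results of these data known. The text names the 10 genes, other genes of the 100 kb, for *dod-24* and K08D8.5 the 5 entries outside it with the highest Pearson r (among those averaging 5 FPKM or more in 1 genotype), of each list up to 4 called genes at the extremes, and *daf-1* and *daf-3*. Other genes named inside a list serve to identify it. The CUB-like list is by common knowledge of the family, since the reference tables hold no domains, and 1 listed infection gene was unmatched.

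Replicate numbers come from the labels, and they were used to pair the libraries. Whether same-numbered populations were grown together is not stated. Deviations from the genotype means correlated at 0.0868 to 0.520 between same-numbered libraries of different genotypes. Between differently numbered ones they correlated at −0.404 to 0.315, so the ranges overlap. Alternatives were all 9 libraries, the replicate block, pseudocounts of 1 and 0.05, no filter on low values, quantile normalization, median centring, a fit with no trend, a fit of only the 2 genotypes compared and leaving out each library.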

Additional observations from a re-analysis of the deposited data

How the results depend on the processing

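Over 18 alternatives *dod-21*, C32H11.9, *dod-24* and *dod-22* stayed called higher in the double mutants than in *daf-1* mutants, with log2 differences of 4.90 to 5.88, 4.33 to 6.28, 2.18 to 2.70 and 1.46 to 2.05. C32H11.4 was called in 16 (2.51 to 3.53) and C32H11.1 in 5. *dod-17* was called only under quantile normalization (1.20) and median centring (1.05), and K08D8.4, K08D8.5 and F55G11.8 in none. K08D8.4 turned to −0.25 with all 9 libraries, with or without the replicate block, and lay between −0.0208 and 0.247 with 1 library left out, the lowest without replicate 1 of the *daf-1* mutants. Of the 10 genes, 6 were called with 8 libraries, 5 with the replicate block and 4 with all 9. Among the genes of the region and of the lists, the block ended 5 calls between the mutants, C32H11.1, F55G11.2, C32H11.7, *irg-1* and the pharynx gene *myo-2* (−0.98, under 2-fold).

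Among all entries, 1740 were called between the mutants, 197 of them higher. The number was 163 with all 9 libraries (74 higher), 205 with the replicate block and all 9, 1153 with a pseudocount of 1 and 538 to 2061 with 1 library left out, the lowest without replicate 1 of the double mutants. It was 1068 without replicate 3 of the *daf-1* mutants. Leaving out a double mutant library leaves 1, which is assumed to vary like the other genotypes. Quantile normalization gave 538 higher of 1405 and median centring 393 of 1575, and centring moved the median of all entries by 0.24. Members' median differences from N2 were 4.49 (all 9) and 4.41 (pseudocount 1) in the double mutants and 2.32 (pseudocount 1) in *daf-1* mutants. The causes of these shifts were not tested. Levels near the pseudocount, such as those of C32H11.1, are the least certain, and depth is unknown.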
